A study of Homo sapiens with 24 samples.

Results

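The 38 genes described here encode proteins of the lysosome and its main transcriptional regulators, and they were chosen by symbol from a list written with earlier results of these data known. They comprised 7 proteases, 9 glycosidases, 2 sulfatases, 3 lipid hydrolases, 3 lumenal cofactors, 6 membrane proteins, 6 subunits of the proton pump and 2 transcription factors, TFEB and TFE3. All 38 were found under their own symbols, among the 14409 gene names listed in any of the 3 tables, and all 38 passed the filter on low counts in each line.

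Panc-1, an established human cell line of pancreatic ductal carcinoma origin, was grown here in high glucose medium with serum depleted of tetracycline. Polyadenylated RNA was sequenced from 3 stable, puromycin-selected derivatives: Tet-One cells carried the empty inducible plasmid, Tet-MIST1 cells the myc-tagged rat MIST1 open reading frame and Tet-PTF1a cells that of mouse PTF1a with the same tag. There were 4 Control libraries (no treatment) and 4 Dox libraries (1 µg/ml doxycycline for 72 h) per line, 24 in all, which the study's methods describe as biological replicates. The passage number was 32 for Tet-One and Tet-PTF1a and 33 for Tet-MIST1. Line and insertion of the plasmid go together, so a difference between lines cannot be told apart from a difference between transformants. In these bulk libraries, fewer cells in a state and less RNA per cell cannot be told apart.

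Lysosomes are acidic compartments in which hydrolases degrade proteins, glycans, lipids and nucleic acids delivered by endocytosis and autophagy. Most soluble hydrolases carry mannose phosphate tags that receptors recognise on the way from the Golgi, and a proton pump, the V-ATPase, acidifies the lumen. TFEB and TFE3 belong to the MiT/TFE family of basic helix-loop-helix leucine zipper factors, which enter the nucleus when mTORC1 signalling falls and bind the CLEAR element, an extended E box near the starts of many lysosomal genes. In pancreatic ductal carcinoma cells MiT/TFE factors are known for keeping lysosomal genes high. MIST1 and PTF1a are themselves basic helix-loop-helix factors of acinar cells and bind E boxes of other cores.

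The promoters of the members were searched for the letters of these boxes because both classes of factor read E boxes. RefSeq (GRCh38.p14) held a promoter (the 250 bases ahead of the start and the 50 that follow it) for 28 of the 38 members. The core CACGTG stood in 8 of the 28 (28.6%), against 7.26% of 35116 promoters of all kinds of gene. Among 73 related lysosomal genes with a promoter, 28.8% held it. The longer form, with T before the core and A after it as in the CLEAR element, stood in 5 of the 28 (17.9%), against 0.98% of all promoters, and every such match is also a match of the core. The other E box cores were searched on either strand in the same way. CAGCTG stood in 8 of the 28 members (28.6%, Wilson 95% interval 15.3% to 47.1%) and in 17.9% of all promoters. CATCTG stood in 2 of the 28 (7.14%, interval 1.98% to 22.6%) and in 14.7% of all promoters. Each interval includes the share of all promoters, so neither core was set apart from that background. Without the 50 bases after the start, CAGCTG stood in 17.9% of the members and 14% of all promoters. Members without a promoter in the table were CTSB, HEXA, MANBA, ARSA, ASAH1, PSAP, LAMP2, ATP6V1A, ATP6V1B2 and ATP6V1H.

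The 8 members with CACGTG are shown with the bases around each copy that lies wholly before the start, 5′ to 3′ on the strand of the gene, since they include genes that fell and a gene that rose with Dox in the same line. Capitals mark CACGTG, which reads the same on both strands.
CTSA: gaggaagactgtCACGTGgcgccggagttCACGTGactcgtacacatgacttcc
CTSD: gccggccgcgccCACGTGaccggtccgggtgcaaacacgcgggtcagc
GAA: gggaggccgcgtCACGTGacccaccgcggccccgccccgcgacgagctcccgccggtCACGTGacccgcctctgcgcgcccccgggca
NEU1: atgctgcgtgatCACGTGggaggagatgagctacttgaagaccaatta
LAMP1: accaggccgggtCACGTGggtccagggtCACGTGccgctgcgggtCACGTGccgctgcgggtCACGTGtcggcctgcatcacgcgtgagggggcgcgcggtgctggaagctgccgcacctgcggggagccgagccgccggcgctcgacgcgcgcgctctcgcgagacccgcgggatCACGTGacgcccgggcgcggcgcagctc
CD63: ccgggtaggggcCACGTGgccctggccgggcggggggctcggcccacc
MCOLN1: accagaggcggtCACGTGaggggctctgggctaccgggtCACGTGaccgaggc
ATP6V0D1: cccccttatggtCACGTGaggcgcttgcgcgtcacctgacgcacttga
The stretches lie at chr20:45891281-45891334 (CTSA, plus strand), chr11:1763939-1763986 (CTSD, minus strand), chr17:80101493-80101580 (GAA, plus strand), chr6:31862912-31862959 (NEU1, minus strand), chr13:113297035-113297238 (LAMP1, plus strand), chr12:55729154-55729201 (CD63, minus strand), chr19:7522571-7522623 (MCOLN1, plus strand) and chr16:67481181-67481228 (ATP6V0D1, minus strand) in GRCh38.p14. CTSA, GAA and MCOLN1 hold 2 copies of the core each, LAMP1 5, and CTSD, NEU1, CD63 and ATP6V0D1 1. LAMP1 has 1 more copy, which runs across the start and is not shown. The T and A that make the longer form flanked a core in CTSA, GAA, LAMP1, MCOLN1 and ATP6V0D1. A match describes letters and is not evidence of binding.

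Without Dox the members spanned a wide range of levels, given here as CPM (counts scaled to the size of the library) divided by exon length in kb. PSAP, the precursor of the saposins that help enzymes reach sphingolipids, stood far above the rest in every line, at 1303 ± 52.3, 1125 ± 30.2 and 777 ± 27.2 in Tet-One, Tet-MIST1 and Tet-PTF1a respectively (SD, n = 4). CTSD, the main aspartic protease of the lysosome, came next at 206 ± 16.3, 259 ± 9.15 and 233 ± 7.99. CD63, a tetraspanin of late endosomes, lysosomes and exosomes, followed at 146 ± 2.99, 201 ± 6.23 and 147 ± 2.26. TFEB was the lowest member in all 3 lines, at 1.88 ± 0.204, 2.93 ± 0.18 and 2.24 ± 0.148, and TFE3, its relative, stood well above it at 19.7 ± 0.595, 24.2 ± 0.85 and 18.8 ± 0.723. PSAP exceeded TFEB 692 times, 384 times and 347 times in these lines. The order was loose in the middle of the list: for 17, 16 and 16 of the 37 neighbouring pairs, in the same order of lines, the gap between means was no larger than the sum of the SDs.

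**Figure D1:**
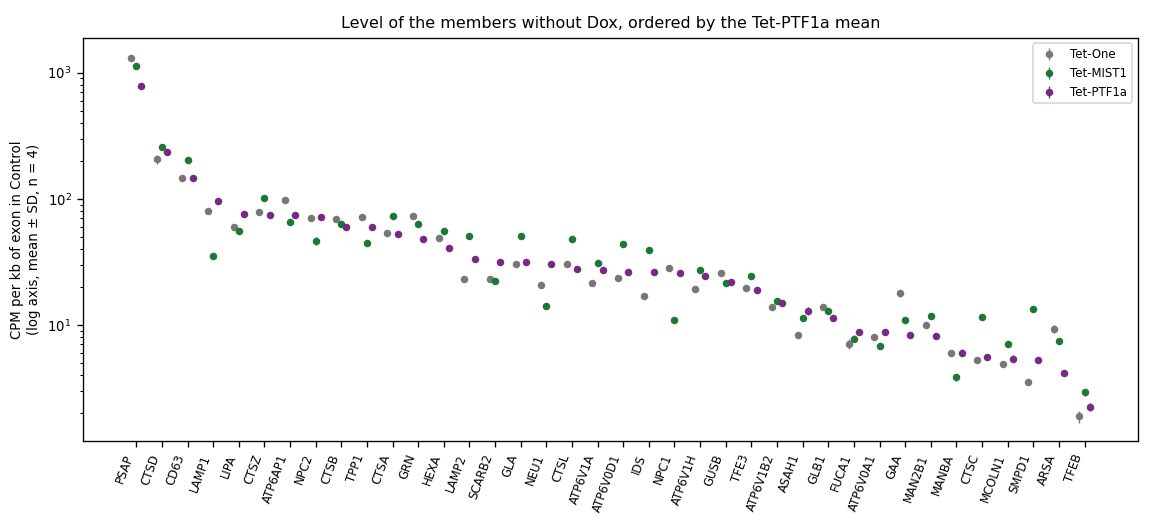
Level of each of the 38 members in the Control libraries, in CPM per kb of exon on a log axis, with the mean and SD of 4 libraries for each line. PSAP lies at the top and TFEB at the bottom in each line, and single members such as SMPD1, LAMP1 and NPC1 differ between lines more than their SDs.

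Control levels of several members differed between the lines by more than their SDs. They are set side by side without a test because line, transformant and table go together. The CPM values were scaled within each line and not across lines. SMPD1, acid sphingomyelinase, was at 8.67 ± 0.268 CPM in Tet-One and 12.9 ± 0.302 CPM in Tet-PTF1a, but 33.3 ± 1.41 CPM in Tet-MIST1 (SD, n = 4, as below). CTSC was at 40.0 ± 1.17, 87.4 ± 2.90 and 42.6 ± 1.78 CPM and LAMP2 at 219 ± 9.18, 479.8 ± 10.2 and 313 ± 11.2 CPM, both highest in Tet-MIST1. LAMP1 and NPC1 ran the other way and were lowest in Tet-MIST1. LAMP1, an abundant glycoprotein of the lysosomal membrane, was at 204 ± 2.47, 89.1 ± 1.40 and 245 ± 7.53 CPM. The cholesterol exporter NPC1 was at 136 ± 5.51, 53.0 ± 1.75 and 125 ± 3.94 CPM.

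Depth ranged from 35863825 to 41648040 counts per library in Tet-One, was 33402628 to 42510942 in Tet-MIST1 and spread from 17210989 to 43018494 for Tet-PTF1a. Between replicates the biological coefficient of variation was 14.4% in Tet-One, 6.58% in Tet-MIST1 and 2.80% for Tet-PTF1a. The Tet-One Dox library of replicate 1 stood apart from its group: its genes deviated from the mean of the other libraries with an SD of 0.58 on the log2 scale, against 0.20 to 0.23 for the other Tet-One Dox libraries. The Tet-MIST1 Dox library of replicate 1 deviated by 0.23. PTF1A at its human locus had 0 to 2 counts in the Control and 53 to 168 counts in the Dox libraries of Tet-PTF1a, and BHLHA15, the human MIST1 gene, had 2 to 22 counts there. Neither locus is listed in the filtered tables of the other lines, and reads of the transgenes were not measured apart. Of the markers of an epithelial line, KRT8, KRT18 and KRT19 were abundant, EPCAM was at 18.1 to 58.9 CPM and KRT7 was at most 6.555 CPM. Of the other cell types, 1 of 6 macrophage genes was listed (CD14, at most 1.27 CPM), 2 of 4 fibroblast genes (PDGFRB and COL1A1) and 0 of 3 endothelial genes. PDGFRB was at most 1.72 CPM. COL1A1 was at 80.6 to 133 CPM in Tet-One, 62.4 to 77.7 CPM in Tet-MIST1 and 64.2 to 154 CPM in Tet-PTF1a, above EPCAM in each line.

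Dox alone did not move the members detectably in Tet-One cells, the control for the antibiotic. By the quasi-likelihood test of edgeR, 0 of 38 members were called at an FDR under 0.05 in Tet-One, where 0 of all 13428 genes tested (0% called) passed. The lowest FDR of a member was 0.897, and 0 members had an unadjusted p under 0.05, against 2.99% of all genes. DESeq2 also called 0 members, as did the fit without the Dox library of replicate 1. Log2 changes, Dox over Control here and below, ran from -0.19 to 0.32 with a median of 0.01, against 0.00 over all genes. The largest was that of TFEB. Its Control libraries read 4.33, 5.56, 5.24 and 5.45 CPM and its Dox libraries 8.25, 5.41, 6.61 and 5.39 CPM, so the groups overlapped and the change of 0.32 ± 0.15 (SE) was not called (FDR 0.897). The lowest was that of NPC1, at -0.19 ± 0.16, with 139, 131, 143 and 132 CPM in Control and 78.0, 133, 132 and 136 CPM in Dox, where replicate 1 was the low Dox library. CTSA was the only member whose groups did not overlap, with Dox higher, 1 of 38 against 2.41% of all genes (1.35% with Dox higher and 1.06% lower).

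**Figure D2:**
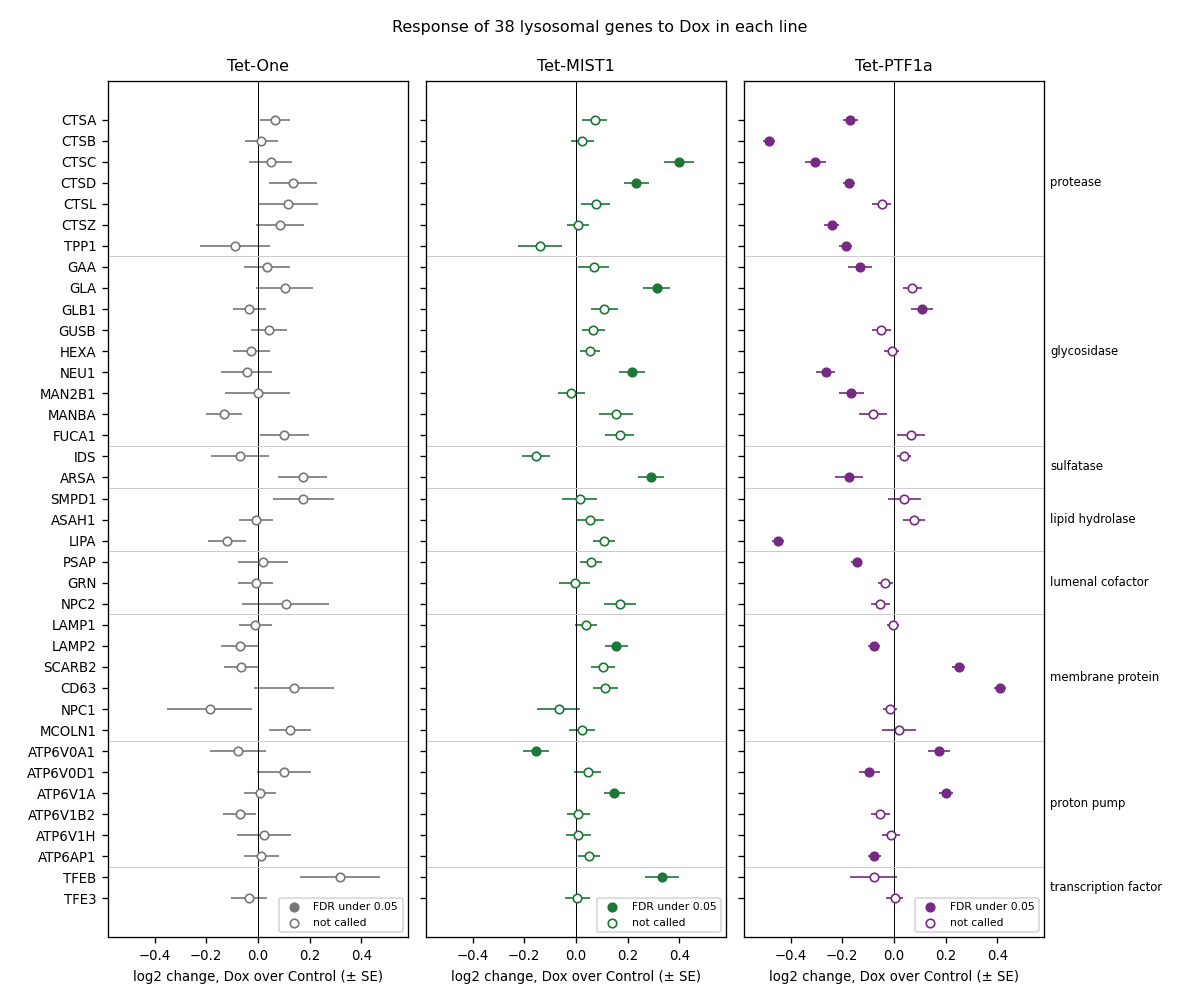
Log2 change with Dox of each of the 38 members in each line, grouped by class, with bars of 1 SE; filled points passed an FDR of 0.05 in edgeR. Tet-One has 0 filled points, those of Tet-MIST1 lie mostly to the right of zero (8 of 9) and those of Tet-PTF1a mostly to the left (15 of 20).

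In Tet-MIST1 cells Dox was followed by a modest rise of some hydrolases and of TFEB. Of the 38 members, 8 were induced and 1 was repressed. The 9 called members are 23.7% of the 38, close to the 20.6% called among all 13623 genes tested, while the 8 induced are 21.1% against 11.9% of all genes and the 1 repressed is 2.63% against 8.77%. Among genes at least as abundant as the lowest member the background was 22.2%, with 13.2% induced and 8.99% repressed. The members' median change was 0.06, against -0.00 (rounded) over all genes, and 32 of the 38 had a positive sign. The induced members were CTSC, TFEB, GLA, ARSA, CTSD, NEU1, LAMP2 and ATP6V1A, with rises of 10.9% to 31.7%.

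Of the 7 proteases, CTSC and CTSD were induced. CTSC, a dipeptidyl peptidase that activates other proteases by trimming their ends, read 87.9, 91.2, 84.4 and 86.3 CPM in Control and 122, 102, 118 and 118 CPM in Dox. All Dox libraries lay above all Control libraries, and replicate 2 was the Dox library closest to them. The change was 0.40 ± 0.06 (SE), with an FDR of 8.63e-04 by edgeR. CTSD read 556, 523, 552 and 568 CPM in Control and 659, 665, 598 and 663 CPM in Dox. It rose by 0.23 ± 0.05 (FDR 0.00729), and its lowest Dox library, replicate 3, still exceeded each Control library. The cysteine protease CTSB was not called, at 248, 250.4, 249 and 259 CPM in Control and 246, 272, 254 and 253 CPM in Dox, a change of 0.02 ± 0.04 (FDR 0.714). CTSA, CTSL, CTSZ and TPP1 were not called either, with changes from -0.14 to 0.08.

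Of the 9 glycosidases, GLA and NEU1 were induced and 8 of 9 had a positive sign. GLA is the alpha-galactosidase that clears globotriaosylceramide, and it read 69.3, 74.1, 70.9 and 72.8 CPM in Control and 93.7, 81.1, 91.3 and 90.4 CPM in Dox. The groups did not overlap and the change was 0.31 ± 0.05 (FDR 0.00201). NEU1, the lysosomal sialidase, read 27.9, 30.4, 27.4 and 30.2 CPM in Control and 34.0, 34.3, 32.9 and 33.4 CPM in Dox, a small shift of non-overlapping groups by 0.22 ± 0.05 (FDR 0.0121). NEU1 is listed on chromosome 6 and on alternative haplotypes of that region, and reads shared between these copies could be assigned to any of them. GAA, which degrades glycogen, read 40.7, 39.0, 43.3 and 42.0 CPM in Control and 42.7, 47.2, 39.0 and 44.1 CPM in Dox, with overlapping groups (0.07 ± 0.06, FDR 0.446). HEXA, the alpha subunit of beta-hexosaminidase, read 133, 139, 135 and 136 CPM in Control and 141, 145, 139.8 and 138 CPM in Dox (0.05 ± 0.04, FDR 0.332). FUCA1, the alpha-fucosidase, lay just outside the threshold at an FDR of 0.0504 and a change of 0.17 ± 0.06.

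ARSA, the sulfatase that acts on sulfatide, rose by 0.29 ± 0.05 (FDR 0.00241). Its Control libraries read 32.5, 30.2, 33.3 and 32.9 CPM and its Dox libraries 40.2, 39.6, 37.4 and 40.2 CPM, with a clear gap between the groups. IDS, the sulfatase of heparan and dermatan sulfate, moved in the other direction by -0.15 ± 0.05 and did not pass (FDR 0.0618), although its groups did not overlap. The lipid hydrolases were not called. SMPD1 read 34.6, 32.1, 32.1 and 34.5 CPM in Control and 37.5, 29.9, 32.5 and 34.7 CPM in Dox, with overlapping groups (0.01 ± 0.07, FDR 0.892). LIPA, the acid lipase, changed by 0.11 ± 0.04 (FDR 0.0837) and the ceramidase ASAH1 by 0.06 ± 0.05 (FDR 0.492). The cofactors PSAP, GRN and NPC2 were not called.

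Among membrane proteins LAMP2 was the only one called. LAMP2, a glycoprotein of the lysosomal membrane that serves chaperone-mediated autophagy, read 477, 485, 489.7 and 467 CPM in Control and 509, 555, 548 and 526 CPM in Dox. Its groups were apart by a narrow margin, and the rise of 0.16 ± 0.04 passed (FDR 0.0284). LAMP1 read 90.9, 88.3, 87.8 and 89.4 CPM in Control and 87.1, 94.7, 92.3 and 92.1 CPM in Dox and changed by 0.04 ± 0.04 (FDR 0.527). NPC1 read 54.7, 52.2, 54.1 and 50.9 CPM in Control and 40.9, 54.8, 54.8 and 51.8 CPM in Dox, with a single low Dox library, replicate 1, and overlap in the others (-0.07 ± 0.08, FDR 0.582). MCOLN1, the calcium channel of the lysosomal membrane, read 14.8, 14.4, 15.1 and 14.99 CPM in Control and 15.2, 14.8, 14.6 and 15.7 CPM in Dox, again overlapping (0.02 ± 0.05, FDR 0.756). For CD63 and SCARB2 the groups did not overlap, but neither passed (FDR 0.114 and 0.126). In all, 14 of 38 members (12 higher, 2 lower) had groups that did not overlap, against 26.9% of all genes (14.1% higher, 12.9% lower), and 16 members had an unadjusted p under 0.05, against 36.7%.

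Subunits of the proton pump gave the only repressed member and a further small rise. ATP6V0A1, an isoform of the large membrane subunit, read 28.7, 27.7, 29.4 and 27.9 CPM in Control and 23.9, 26.6, 26.1 and 25.6 CPM in Dox. It fell by 0.15 on the log2 scale, at an FDR of 0.0479. ATP6V1A, the catalytic subunit that hydrolyses ATP, read 145, 138, 142 and 141 CPM in Control and 164, 150.2, 157 and 156 CPM in Dox and rose by 0.15 ± 0.04 (FDR 0.0291). The other 4 subunits changed by 0.01 to 0.05 and were not called.

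Of the transcription factors, TFEB rose and TFE3 did not pass. TFEB read 8.45, 7.64, 7.54 and 8.42 CPM in Control and 10.3, 9.51, 10.2 and 10.4 CPM in Dox, with no overlap. The change was 0.33 ± 0.06, or 25.9% (FDR 0.00495 by edgeR). TFE3 read 86.99, 79.9, 84.3 and 83.5 CPM in Control and 84.3, 84.5, 78.6 and 88.4 CPM in Dox, a change of 0.00 ± 0.05 (FDR 0.95). The TFEB change in Tet-One was 0.32 ± 0.15 (not called), and 0.17 ± 0.10 without the Dox library of replicate 1. The difference between the responses of Tet-MIST1 and Tet-One for TFEB was 0.01 ± 0.19 (SE, FDR 0.997), and 0.17 ± 0.12 without that library (FDR 0.371).

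**Figure D3:**
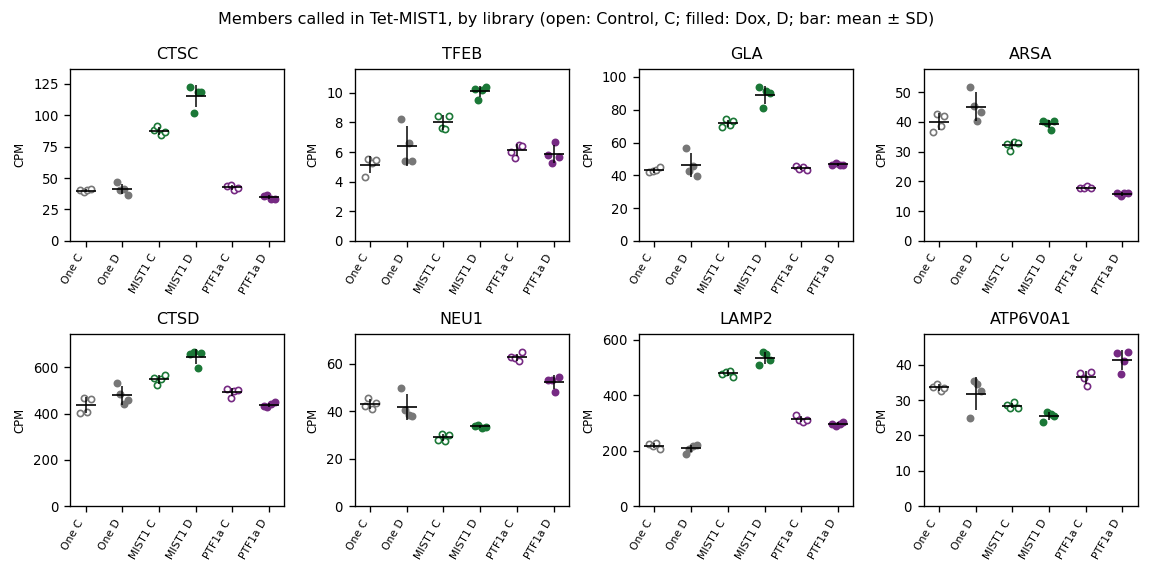
CPM in each library of the 8 called members with the largest changes in Tet-MIST1, with Control (C, open) and Dox (D, filled) libraries of all 3 lines and the mean and SD of 4 libraries. In Tet-MIST1 the Dox libraries of CTSC, TFEB, GLA, ARSA, CTSD, NEU1 and LAMP2 lie above all Control libraries and those of ATP6V0A1 below them.

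The calls in Tet-MIST1 rested unevenly on single libraries. CTSC, TFEB, GLA, ARSA and CTSD were called with each of the 8 libraries left out in turn. NEU1 was called in 7 of these 8 fits, LAMP2 and ATP6V1A in 2 and ATP6V0A1 in 1. The number of induced members ranged from 5 without Control replicate 3 (13.2%, against 7.06% of all genes) to 15 without Dox replicate 1 (39.5%, against 14.3%). The interaction of line and Dox, fitted by edgeR on the 16 libraries of Tet-MIST1 and Tet-One, called 0 of 38 members, against 1.66% of all genes (1.48% larger in Tet-MIST1). Without the Tet-One Dox library that stood apart it called 6 (CTSC, GLA, NEU1, MANBA, LIPA and NPC2, all larger in Tet-MIST1), or 15.8%, near the 13.9% of all genes called in that fit, of which 8.52% were larger and 5.41% smaller. With all 16 libraries the difference was 0.34 ± 0.10 for CTSC (FDR 0.119), 0.20 ± 0.12 for GLA (FDR 0.62) and 0.09 ± 0.10 for CTSD (FDR 0.873). At an unadjusted p under 0.05 the interaction gave 6 members (15.8%), against 11.4% of all genes, and DESeq2 called 1 (2.63%), against 3.60%.

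In Tet-PTF1a cells Dox was followed by lower levels of most proteases and of several other soluble hydrolases, and by higher levels of CD63 and SCARB2. Of the 38 members, 15 were repressed and 5 induced. The 20 called are 52.6%, against 48.2% called among all 14053 genes tested. The 15 repressed are 39.5% against 24.4% of all genes, and the 5 induced 13.2% against 23.8%. Among genes at least as abundant as the lowest member these backgrounds were 52.7%, 26.9% and 25.8%. Groups did not overlap for 19 members (5 higher, 14 lower), against 42.3% of all genes (20.8% higher, 21.4% lower), and 20 members had an unadjusted p under 0.05, against 53.6%. The median change of the members was -0.05, against 0.00 over all genes. The epithelial markers KRT8, KRT18, KRT19 and EPCAM were repressed in this line and KRT7 was induced, and their sum went from 3139 to 3325 CPM in Control to 1438 to 1491 CPM in Dox, and COL1A1 was repressed while PDGFRB was not called, their sum going from 147 to 155 CPM to 64.8 to 67.1 CPM. Their part in the lysosomal changes was not tested.

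Of the 7 proteases, 6 were repressed: CTSA, CTSB, CTSC, CTSD, CTSZ and TPP1. Summed over the 7 proteases, the 4 Control libraries held 1237 to 1288 CPM and the 4 Dox libraries 1056 to 1098 CPM. CTSB, a cysteine protease with both endopeptidase and exopeptidase activity, fell furthest. Its Control libraries read 237, 241, 236 and 238 CPM and its Dox libraries 163, 170.2, 172 and 174 CPM. The groups were far apart against a spread of a few CPM, and the change was -0.48 ± 0.02 (it fell by 28.5%, FDR 3.43e-23 by edgeR). CTSC read 43.7, 44.2, 40.2 and 42.4 CPM in Control and 35.3, 36.5, 33.5 and 33.3 CPM in Dox, all lower, and changed by -0.30 ± 0.04 (FDR 1.61e-08). The carboxypeptidase CTSZ read 114, 111, 109 and 114 CPM in Control and 96.3, 91.99, 95.3 and 96.5 CPM in Dox, again without overlap (-0.24 ± 0.03, FDR 4.61e-10). CTSD read 506, 469, 499 and 503 CPM in Control and 435, 428, 442 and 450.0 CPM in Dox (-0.17 ± 0.02, FDR 9.67e-09). TPP1, a tripeptidyl peptidase, changed by -0.19 ± 0.02 (FDR 1.02e-08). CTSA, which also holds NEU1 and beta-galactosidase in a complex, changed by -0.17 ± 0.03 (FDR 2.08e-06). The cysteine protease CTSL was not called, at -0.05 ± 0.04 (FDR 0.279).

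The glycosidases divided. NEU1, MAN2B1 and GAA were repressed, GLB1 was induced and the other 5 were not called. NEU1 read 62.9, 62.4, 61.3 and 64.8 CPM in Control and 53.3, 53.3, 48.1 and 54.4 CPM in Dox. Replicate 3 was the lowest Dox library, and all 4 lay below Control (-0.26 ± 0.04, FDR 1.65e-08). GAA read 31.9, 30.5, 32.2 and 31.6 CPM in Control and 29.5, 29.5, 25.5 and 30.3 CPM in Dox and changed by -0.13 ± 0.05 (FDR 0.0167). That call was lost without Dox replicate 3, at -0.08 (FDR 0.144 by edgeR), and with the trend in exon length and GC content removed. The alpha-mannosidase MAN2B1 changed by -0.16 ± 0.05 (FDR 0.00365). The beta-galactosidase GLB1 rose by 0.11 ± 0.04 (FDR 0.0343), a call that 4 of the 8 fits without 1 library kept. HEXA was not called, with 103, 98.0, 95.4 and 96.5 CPM in Control and 95.6, 99.5, 95.8 and 100.02 CPM in Dox (-0.01 ± 0.03, FDR 0.831). GLA, induced in Tet-MIST1, was at 0.07 ± 0.04 here (FDR 0.111).

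LIPA was the only lipid hydrolase called, and its fall came next in size to that of CTSB. The enzyme hydrolyses cholesteryl esters and triglycerides taken up in lipoproteins. It read 211, 211, 209 and 209 CPM in Control and 152, 152, 154 and 157 CPM in Dox. Both groups were tight and did not overlap, and the change was -0.45 ± 0.02 (it fell by 26.7%, FDR 6.08e-22). SMPD1 was not called, at 12.8, 12.7, 13.3 and 12.9 CPM in Control and 11.7, 13.8, 13.3 and 13.9 CPM in Dox (0.04 ± 0.06, FDR 0.629), and ASAH1 was not either (0.08 ± 0.04, FDR 0.147). Of the sulfatases ARSA fell by 0.17 on the log2 scale (FDR 0.00701), and IDS was not called. Among the cofactors PSAP was repressed. It fell from 2203 ± 77.0 to 1993 ± 52.9 CPM, so that, although its log2 change was only -0.14 ± 0.02 (FDR 9.60e-07), it lost more CPM than any other member. GRN and NPC2 were not called.

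Of the 6 membrane proteins, CD63 and SCARB2 were induced, LAMP2 was repressed and the other 3 were not called. CD63 read 307, 298, 307 and 301 CPM in Control and 393, 397, 397 and 422 CPM in Dox. All Dox libraries exceeded all Control libraries by a wide margin, with a rise of 0.41 ± 0.02, or 32.7% (FDR 4.74e-21). SCARB2, the receptor that carries beta-glucocerebrosidase to the lysosome, read 151, 149.6, 149 and 149.6 CPM in Control and 182, 175, 177 and 179 CPM in Dox, also without overlap (0.25 ± 0.02, FDR 1.88e-12). LAMP2 fell slightly. Its libraries read 329.8, 310.1, 304 and 309.5 CPM in Control and 298, 291, 297 and 304 CPM in Dox (-0.08 ± 0.02, FDR 0.00605). LAMP1, a common marker of lysosomes, was not called: it read 254, 239.7, 238 and 248 CPM in Control and 245, 242, 241 and 249.96 CPM in Dox, a change of -0.01 ± 0.02 (FDR 0.876). NPC1 read 128, 127, 119 and 126 CPM in Control and 120.4, 125, 127 and 123 CPM in Dox (-0.02 ± 0.03, FDR 0.682). MCOLN1 read 11.3, 11.6, 10.4 and 12.1 CPM in Control and 11.4, 11.2, 11.8 and 11.8 CPM in Dox, with overlapping groups (0.02 ± 0.07, FDR 0.839).

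**Figure D4:**
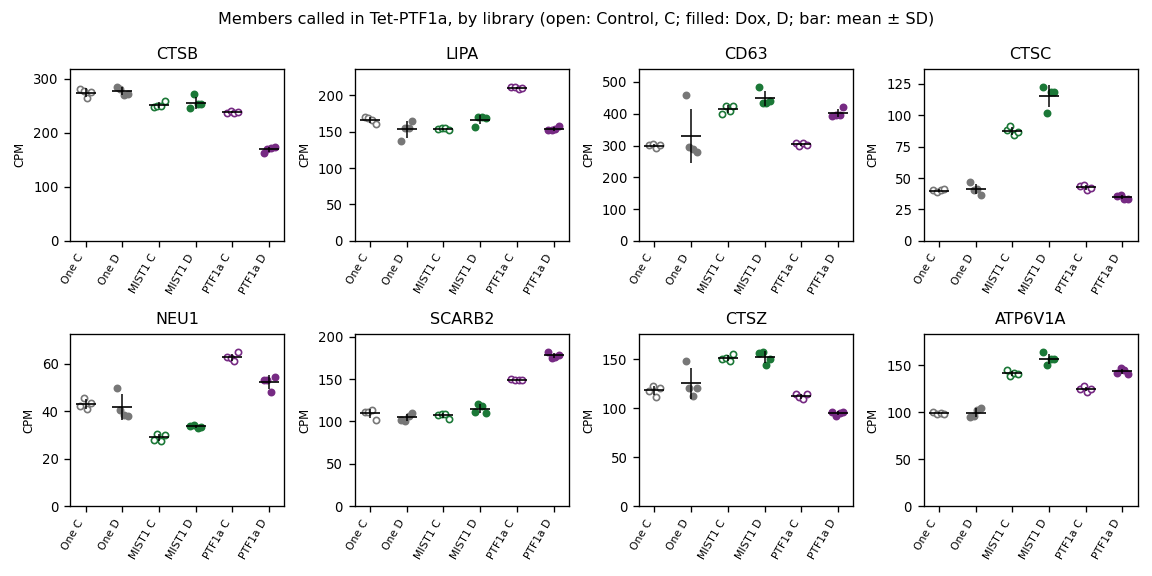
CPM in each library of the 8 called members with the largest changes in Tet-PTF1a, with Control (C, open) and Dox (D, filled) libraries of all 3 lines and the mean and SD of 4 libraries. In Tet-PTF1a the Dox libraries of CTSB, LIPA, CTSC, NEU1 and CTSZ lie below all Control libraries and those of CD63, SCARB2 and ATP6V1A above them.

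The proton pump changed in both directions. ATP6V1A read 124, 128, 122 and 125 CPM in Control and 142, 147, 145 and 140.2 CPM in Dox, without overlap, and rose by 0.20 ± 0.03 (FDR 7.52e-09). ATP6V0A1 rose by 0.17 ± 0.04 (FDR 0.00107), with overlapping groups. ATP6V0D1, a subunit of the membrane sector, fell by 0.10 (FDR 0.0465), a call that DESeq2 and 4 of the 8 fits without 1 library did not make. The accessory subunit ATP6AP1 fell by 0.08 (FDR 0.0139). ATP6V1B2 and ATP6V1H were not called.

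Neither transcription factor was called in Tet-PTF1a. TFEB read 6.01, 5.60, 6.501 and 6.38 CPM in Control and 5.80, 5.23, 6.70 and 5.66 CPM in Dox, with overlap and a change of -0.08 ± 0.09 (FDR 0.498). TFE3 read 65.6, 62.2, 63.4 and 67.9 CPM in Control and 67.4, 65.4, 65.0 and 63.8 CPM in Dox (0.00 ± 0.03, FDR 0.947). The hydrolases named above fell without a called change in the RNA of TFEB or TFE3. That does not hold for the whole MiT/TFE family. MITF, a relative of TFEB outside the members, was repressed in this line and is described below with the related genes. Whether MITF had a part in the fall of the hydrolases was not tested. Protein and nuclear localisation were not measured.

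The calls of CTSB, LIPA, CTSC, NEU1, CTSZ, CTSD, CTSA, CD63, SCARB2 and ATP6V1A held in all 8 fits without 1 library and in the 9 other settings run. With all 24 libraries in 1 fit, which shares the larger spread of Tet-One, 7 members were repressed (18.4%, against 12.5% of all genes) and 3 induced (7.89%, against 10.7%), and the calls of TPP1, GAA, GLB1, MAN2B1, ARSA, PSAP, LAMP2, ATP6V0A1, ATP6V0D1 and ATP6AP1 were lost. With scaling by library size in place of TMM, 8 members were called higher (21.1%, against 31.3% of all genes) and 11 lower (28.9%, against 19.2%), with GAA, LAMP2, ATP6V0D1 and ATP6AP1 no longer called, and the share of higher calls among all called genes was 61.9%, against 49.4% with TMM.

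Of the 7 members called in both lines, 6 moved in opposite directions, against 45.3% of the 1513 genes called in both. CTSC, CTSD, NEU1, ARSA and LAMP2 were called higher with Dox in the Tet-MIST1 line, and all 5 were called lower in the Tet-PTF1a line. ATP6V0A1 did the reverse, and ATP6V1A rose in both. Not all of these changes differed from those of Tet-One by the interaction test of edgeR. For Tet-MIST1 it called 0 of 38 members with all 16 libraries. For Tet-PTF1a it called CTSC, CTSD and ARSA, but not LAMP2 (-0.01, FDR 0.969), NEU1 (-0.22, FDR 0.211) or ATP6V0A1 (0.26, FDR 0.23). In Tet-MIST1 the calls of LAMP2 and ATP6V0A1 held in 2 and 1 of the 8 fits without 1 library. Tet-MIST1 and Tet-PTF1a have separate Control libraries. The interaction of line and Dox over their 16 libraries called 17 of 38 members, 44.7%, against 36.4% of all 13521 genes. The log2 change was lower in Tet-PTF1a for 13 members (34.2%, against 18.6% of all genes) and higher for 4 (10.5%, against 17.8%). The largest difference was that of CTSC, -0.69 ± 0.08 (SE, FDR 3.24e-07 by edgeR). LIPA differed by -0.55 ± 0.04 (FDR 3.85e-09), CTSB by -0.50 ± 0.05 (FDR 6.00e-08) and NEU1 by -0.47 ± 0.06 (FDR 6.81e-06). TFEB differed by -0.40 ± 0.11 (FDR 0.00568), although its change in Tet-PTF1a itself was not called. ARSA, CTSD, CTSZ, CTSA, GLA, PSAP, NPC2 and LAMP2 also had a lower log2 change in Tet-PTF1a, with differences of -0.45 to -0.19. The 4 with the higher log2 change in Tet-PTF1a were ATP6V0A1 (0.34 ± 0.07), CD63 (0.31 ± 0.06), IDS (0.21 ± 0.06) and SCARB2 (0.16 ± 0.05).

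**Figure D5:**
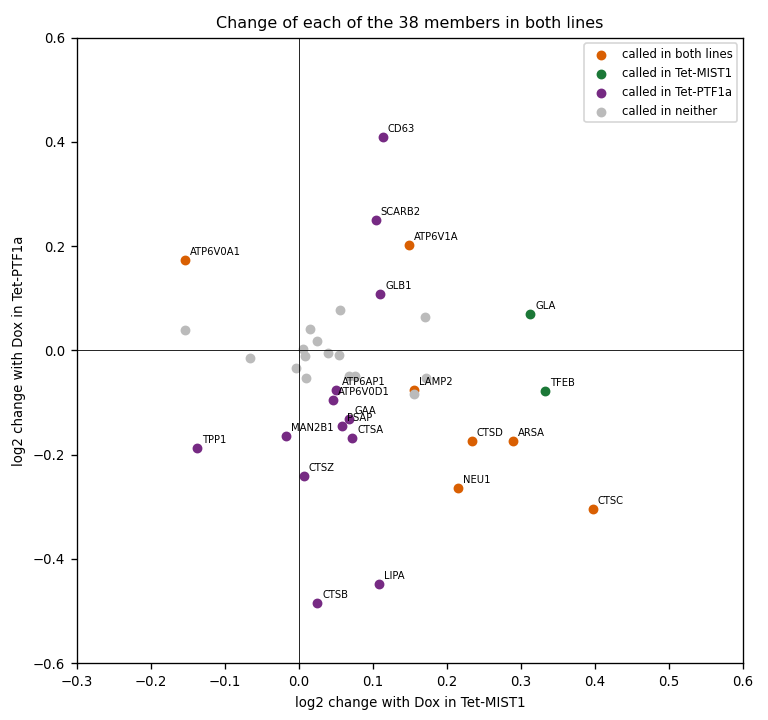
Log2 change with Dox of the 38 members in Tet-MIST1 (horizontal axis) and in Tet-PTF1a (vertical axis), coloured by where each was called. CTSC, CTSD, NEU1, ARSA and LAMP2 lie in the lower right quadrant, ATP6V0A1 in the upper left and ATP6V1A in the upper right.

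Against Tet-One, the interaction called 9 members in Tet-PTF1a, 23.7%, against 12.8% of all genes tested (7.33% with a lower log2 change and 5.52% with a higher one). CTSB (-0.50 ± 0.06), CTSC (-0.35 ± 0.09), ARSA (-0.35 ± 0.10), LIPA (-0.33 ± 0.07), CTSZ (-0.32 ± 0.10), CTSD (-0.31 ± 0.09) and CTSA (-0.23 ± 0.06) had a lower log2 change than in Tet-One, and each was repressed in Tet-PTF1a. SCARB2 (0.31 ± 0.07) and ATP6V1A (0.19 ± 0.06) had a higher one. The calls of CTSB, CTSC, LIPA, CTSA and SCARB2 held in all 16 fits without 1 library, those of ARSA and CTSD in 6, that of CTSZ in 5 and that of ATP6V1A in 3. With the trend in exon length and GC content removed, the calls of CTSC, CTSD, ARSA and ATP6V1A were lost and the difference for CTSD was -0.09. In that fit 4 members had a lower log2 change (10.5%, against 11.1% of all genes). A higher one was called for 2 (5.26%, against 9.33%), including a member not called in the main fit. CD63, the most induced member, differed by 0.27 ± 0.16 and did not pass (FDR 0.351). The Dox libraries of Tet-One read 458, 294, 289 and 281 CPM for CD63, of which replicate 1 was the high one. Without that library 10 members had a lower log2 change than in Tet-One (26.3%, against 16.1% of all genes) and 3 a higher one (7.89%, against 14.6%).

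Calls are set beside the boxes shown above as a description. In Tet-PTF1a, CTSA, CTSD, GAA, NEU1 and ATP6V0D1 were repressed and CD63 was induced, all with CACGTG before the start, and LAMP1, with the most copies, and MCOLN1 were not called. The repressed members CTSC, CTSZ, TPP1, MAN2B1, LIPA and ATP6AP1 have promoters without these letters in the window, as do the induced members GLB1, SCARB2 and ATP6V0A1. In Tet-MIST1, CTSD and NEU1 have CACGTG and were induced, CTSC, GLA and TFEB were induced without it, and the repressed ATP6V0A1 lacks it too. CTSA, GAA, LAMP1, CD63, MCOLN1 and ATP6V0D1 have it and were not called in that line.

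A further 96 genes of the pathway, in 5 classes, were read in the same fits. In Tet-One 0 of the 90 tested were called. In Tet-MIST1 27 of 92 tested were induced and 4 repressed (29.3% and 4.35%, against 11.9% and 8.77% of all genes). The largest rise was that of ACP2, a lysosomal acid phosphatase, from 25.6 ± 1.21 to 54.3 ± 4.24 CPM (SD, n = 4; log2 change 1.09 ± 0.06 SE; FDR 7.41e-07 by edgeR). MITF, a relative of TFEB, rose from 1.79 ± 0.11 to 3.02 ± 0.09 CPM (0.74 ± 0.09). SLC36A1 and SLC38A9, amino acid carriers of the lysosomal membrane, rose by 0.54 and 0.44, and the pump subunit ATP6V1B1 by 0.73 from under 1 CPM. The 4 repressed were IGF2R (-0.41), the receptor for mannose phosphate, HGSNAT (-0.32), CTSO (-0.27) and CD68 (-0.27). Of 30 other hydrolases and cofactors, 11 were induced and 2 repressed, while of 13 sorting genes 0 were induced and 1 was repressed.

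In Tet-PTF1a 27 of the 92 related genes tested were induced and 27 repressed (29.3% each, against 23.8% and 24.4% of all genes). CD68, a membrane glycoprotein of late endosomes, fell from 65.4 ± 2.87 to 33.3 ± 2.28 CPM (-0.97 ± 0.04). MITF fell from 10.3 ± 0.46 to 5.43 ± 0.34 CPM (-0.93 ± 0.08), against its rise in Tet-MIST1. The proteases CTSH (-0.62) and CTSF (-0.40) and GM2A (-0.38), the activator protein for HEXA, were repressed, as most of the member proteases were. CTSS (0.96, from under 1 CPM) and CTSK (0.43) were induced, so proteases outside the 7 members moved both ways. ABCB9, a peptide transporter, rose by 0.56, the cation channel TPCN1 by 0.50 and the pump subunit ATP6V0E2 by 0.49. Of 16 genes of the MiT/TFE family and nutrient sensing, 15 were tested, and 2 were induced and 6 repressed.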

How the data were processed

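Gene expression was measured by RNA-seq of polyadenylated RNA in 24 libraries, grouped by line and treatment from the sample labels. Paired-end reads were mapped with TopHat (hg19) by the authors, who filtered at 0.5 CPM in 4 samples and deposited unnormalized read counts per gene, with exon lengths, in a table for each line. The submitters' processing notes also name HTSeq, DESeq and edgeR without versions, and the annotation and the use of strand are not given in the sources used here, so reads of overlapping genes could be assigned to either. The 24 columns of CPM values that the authors scaled, and their own log2 changes, p-values and FDRs for Dox against Control, were not used.

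Each line's Dox effect was estimated from these counts with edgeR 4.0.16 (glmQLFit with robust estimation and glmQLFTest; limma 3.58.1, R 4.3.3), TMM factors and a prior count of 2, on all genes above 0.5 CPM in at least 4 of 8 libraries. Members were called at a Benjamini-Hochberg FDR under 0.05 over all genes tested. Differences between lines were tested as the interaction of line and Dox over 16 libraries. A larger or smaller response is a higher or lower log2 change, so a deeper fall counts as smaller. CPM values use TMM-scaled library sizes within a line, and CPM per kb divides by the listed exon length. For NEU1 the chromosome 6 copy was used. Reads were not deduplicated by molecular identifiers as far as the sources state, so depth limits counting error only. Replicates were compared in pairs by chi-square per degree of freedom (1.39 to 238), and no library was a copy of another. The comparison cannot show whether the libraries of a group came from separate cultures. The lowest value was that of a Tet-PTF1a Dox pair, and the FDRs of that line rest on its small spread between replicates.

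The 38 members, the 96 related genes and the markers were chosen with earlier results of these data known. Per-library values are given for up to 8 called members of largest absolute change per line and for LAMP1, LAMP2, CTSB, CTSD, GAA, HEXA, SMPD1, NPC1, MCOLN1, TFEB, TFE3 and ATP6V1A where the line is described. Of the related genes the 5 largest called rises and falls per line are named. Promoters are RefSeq's. Alternatives were DESeq2 1.42.0, other scaling (RLE, library size, upper quartile), no filter, at least 10 counts in every library, a replicate block, removal of the exon length and GC trend, all 24 libraries in 1 fit, levels not divided by length, promoters without the 50 bases after the start, and each library left out. The fits were also run on simulated counts with the same spread in every line and changes larger than that of any member. These runs therefore do not show which changes of the reported size could be detected, nor what the wider spread of Tet-One allows. Figures were drawn with matplotlib 3.10.9.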

Additional observations from a re-analysis of the deposited data

Results flagged for a closer look

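Among 228 groups of 4 libraries (38 members, 6 groups), 17 had a highest or lowest library set apart from the other 3 by more than Dixon's 95% limit, where chance alone gives about 1 in 20, or 11.4. The Tet-One Dox library of replicate 1 gave 8 of them: it was the highest for CTSL (70.9 CPM), NPC2 (96.5 CPM), CD63 (458 CPM), ATP6V0D1 (52.2 CPM) and ATP6V1H (56.0 CPM) and the lowest for TPP1 (169.8 CPM), IDS (76.1 CPM) and NPC1 (78.0 CPM). No other library gave more than 2. In Tet-MIST1 the library apart was the lowest Dox library of CTSD (replicate 3, 598 CPM), the lowest Dox library of LIPA (replicate 1, 157 CPM), the lowest Dox library of NPC2 (replicate 4, 43.1 CPM) and the highest Dox library of CD63 (replicate 1, 483 CPM). In Tet-PTF1a it was the highest Dox library of GLA (replicate 2, 47.7 CPM), the highest Control library of ARSA (replicate 3, 18.3 CPM), the lowest Dox library of ARSA (replicate 2, 14.99 CPM), the highest Control library of PSAP (replicate 1, 2318 CPM) and the highest Dox library of CD63 (replicate 4, 422 CPM).

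The response to Dox differed between Tet-PTF1a and Tet-One by the interaction test of edgeR for 9 members, on the log2 scale and as Tet-PTF1a minus Tet-One. The log2 change was lower in Tet-PTF1a for CTSB (-0.50), ARSA (-0.35), CTSC (-0.35), LIPA (-0.33), CTSZ (-0.32), CTSD (-0.31) and CTSA (-0.23), and higher for SCARB2 (0.31) and ATP6V1A (0.19). The response to Dox differed between Tet-PTF1a and Tet-MIST1 by the interaction test of edgeR for 17 members, on the log2 scale and as Tet-PTF1a minus Tet-MIST1. The log2 change was lower in Tet-PTF1a for CTSC (-0.69), LIPA (-0.55), CTSB (-0.50), NEU1 (-0.47), ARSA (-0.45), TFEB (-0.40), CTSD (-0.39), CTSZ (-0.23), GLA (-0.23), CTSA (-0.23), LAMP2 (-0.22), NPC2 (-0.21) and PSAP (-0.19), and higher for ATP6V0A1 (0.34), CD63 (0.31), IDS (0.21) and SCARB2 (0.16).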

How the results depend on the processing

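No member's call was reversed under any alternative run. In Tet-MIST1, 1 member was repressed, against 2 with DESeq2 and with upper quartile scaling and 0 with library size scaling, with the replicate block and with all 24 libraries in 1 fit. Without 1 library the induced members numbered 5 to 15 and the repressed 0 to 2, the related genes that rose 14 to 32 and those that fell 1 to 6. The low count of 5 was without Control replicate 3. The related genes that rose numbered 27, against 13 with the replicate block (14.1%, against 7.06% of all genes), and those that fell 4, against 1 with the block, 1 with all 24 libraries and 10 with the exon length and GC trend removed. That correction moved the share of higher calls among all called genes in Tet-MIST1 from 57.5% to 49.8%.

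In Tet-PTF1a the induced members numbered 8 with library size scaling and 3 with all 24 libraries, the repressed 7 with all 24 libraries, and the related genes 11 higher and 12 lower in that fit (12.1% and 13.2% of 91, against 10.7% and 12.5% of all genes). The median change of the members was -0.0141 with library size scaling, which also moved the median of all genes to 0.04. Against Tet-One, the Tet-MIST1 response was larger for 1 member with DESeq2, 1 with library size scaling, 3 with the length and GC trend removed and 0 to 6 without 1 library, the 6 without Tet-One Dox replicate 1. The log2 change in Tet-PTF1a against Tet-One was lower for 4 members with library size scaling, 4 with the trend removed and 3 with the replicate block, and higher for 1 with the block. Without 1 library it was lower for 4 to 10 members and higher for 1 to 3. The cause was not tested. The labels do not say whether replicate numbers pair the samples, so the block is given only as an alternative. Same-number libraries of Control and Dox correlated at -0.24 to 0.18, and 1 of 12 correlated best with its own number. With the block, LAMP2, ATP6V0A1 and ATP6V1A were no longer called in Tet-MIST1, nor CTSA, ARSA, CTSD, CTSZ and ATP6V1A in Tet-PTF1a against Tet-One or NPC2 in Tet-PTF1a against Tet-MIST1, and no call of Dox against Control changed in Tet-PTF1a. The spread between replicates, widest in Tet-One, limits the size of change that 4 libraries a group can show.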
